A study of Mus musculus with 46 samples.

Results

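Corticosterone-treated mice that had recovered were compared with their controls at 15 weeks, by RNA-seq of visceral adipose tissue, the fat around the abdominal organs. All libraries that the labels place in the groups CORT_15w, which the labels call recovered from Cushing's syndrome (CS), and VEH_15w, its recovery-stage controls, were taken: 5 libraries in each group, 10 of the 46 samples of the series. Corticosterone, abbreviated CORT, is the main glucocorticoid of rodents, and its excess models Cushing's syndrome. A second pair of groups, CORT_5w and VEH_5w with 5 libraries each, represents the active syndrome and is used where effects at the 2 times are set side by side. Strain, sex, age, dose and the vehicle were not given in the sources used here, nor whether each library came from a separate animal, so p-values measure the spread between these libraries, which may be technical in part.

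Glucocorticoids act through the glucocorticoid receptor, a transcription factor that in fat cells controls genes of lipid storage, lipid release and insulin handling. Lasting excess in Cushing's syndrome is known for enlarging visceral fat and for insulin resistance. Glucocorticoids also follow a daily rhythm and set clocks in peripheral tissues, fat included.

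The authors' table gives expression as FPKM, fragments per kilobase with a scaling for depth, of 24338 genes. A gene was tested where it reached 0.5 FPKM in at least 5 of the 10 libraries, which 14527 of the 21976 genes above 0 did. The reads recovered from the FPKM numbered 25.4 to 32.7 M per library in CORT_15w (mean 29.0 ± 3.09, SD, n = 5) and 25.6 to 36.7 M reads in VEH_15w (30.0 ± 4.33, SD, n = 5). Adipoq, the adipocyte hormone adiponectin, averaged 2479 ± 433 FPKM in CORT_15w and 2939 ± 658 FPKM in VEH_15w (SD, n = 5 each).

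Some libraries also carried transcripts of other tissues. Prm2, a protamine of sperm cells, stood at 309, 1.57, 0.118, 0.19 and 129 FPKM in CORT_15w libraries 1 to 5, against 0.556, 0.2599, 0.0616, 0.359 and 570.4 FPKM in VEH_15w libraries 1 to 5. Crisp1, which the epididymis secretes, had 0.347, 0.212, 0, 0.103 and 0.0718 FPKM in CORT_15w libraries 1 to 5, against 0, 0.0562, 0, 0.103 and 1261 FPKM in VEH_15w libraries 1 to 5. Igj, the joining chain of antibodies, stood at 7.96, 2.905, 12.96, 109 and 5.72 FPKM in CORT_15w libraries 1 to 5, against 39.4, 8.93, 6.44, 6.36 and 1.97 FPKM in VEH_15w libraries 1 to 5. CORT_15w libraries 1 and 5 and VEH_15w library 5 thus held testis transcripts, VEH_15w library 5 epididymis transcripts as well, and CORT_15w library 4 the highest level of the plasma cell gene. The summed level of 19 testis markers ranged from 16.2 to 1749 FPKM in CORT_15w and from 16.6 to 3901 FPKM in VEH_15w, that of 28 epididymis markers from 2.35 to 27.8 FPKM in CORT_15w and from 1.01 to 1729 FPKM in VEH_15w, and that of 21 B and plasma cell markers from 43.4 to 204.5 FPKM in CORT_15w and from 24.4 to 85.3 FPKM in VEH_15w. The summed level of 12 lymph node markers reached 599.7 FPKM in VEH_15w library 5, of which Cd52, a surface protein of lymphocytes that the epididymis also makes, held 575.9 FPKM, and 159.6 FPKM in CORT_15w library 4, against 27.1 to 44.4 FPKM in the other CORT_15w libraries and 28.5 to 34.6 FPKM in the other VEH_15w libraries. That of 13 skeletal muscle markers was 20.5 to 53.7 FPKM in CORT_15w, highest in libraries 1, 2 and 5, and 13.8 to 26.7 FPKM in VEH_15w. The part of these transcripts in the results was not tested beyond the fits without single libraries, without the marked ones, and with Prm2 and Crisp1 as covariates. The 3 libraries with testis transcripts had the lowest scores on the first principal component (-43.8, -25.3 and, in VEH_15w, -38.7), which held 38.9% of the variance. The second component, with 22.8%, placed the CORT_15w libraries at 9.25 to 20.8 and the VEH_15w libraries at -44.8 to -3.20, without overlap.

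**Figure D1:**
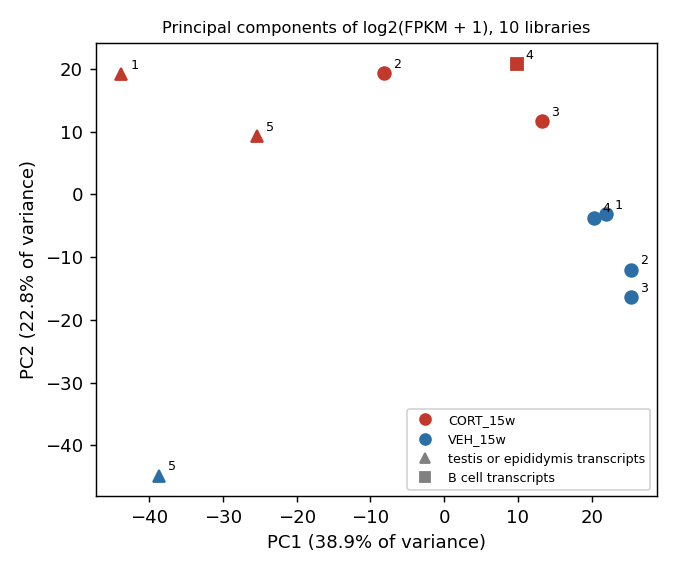
First 2 principal components of log2(FPKM + 1) over the 14527 tested genes, with 1 point per library and its replicate number (red, CORT_15w; blue, VEH_15w; triangles, Prm2 or Crisp1 of at least 100 FPKM; square, Igj of at least 50 FPKM). The triangles lie at the left, and the groups separate along the vertical axis.

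In recovered fat, 997 of the 14527 tested genes (6.86%) differed from controls at an adjusted p below 0.05 (limma, two-sided, Benjamini-Hochberg): 370 were higher (2.55%) and 627 lower (4.32%) in CORT_15w. A change of at least 2-fold (log2 of 1) was seen for 63 of the higher and 74 of the lower genes. No library of 1 group reached into the range of the other for 1239 tested genes (8.53%), among them 796 of the called genes. The smallest adjusted p was 0.00632. Without the 3 libraries with testis or epididymis transcripts, 96 genes (0.661%) were called, 30 higher and 66 lower, and 85 of them were among the 997. Without these and CORT_15w library 4, 1 gene was called, and it was not among the 997. Genes at an unadjusted p below 0.05 then numbered 2057, against 3682 with all libraries. Those fits hold 7 and 6 of the same libraries that made the calls, so the calls are not tested independently by them. Leaving out a single library gave 266 to 597 called genes for CORT_15w libraries 1, 2, 4 and 5 and VEH_15w libraries 1 to 4, and 1303 without CORT_15w library 3 or 1088 without VEH_15w library 5. In all 10 of these fits together, 244 of the 997 genes were called. In the fit without CORT_15w library 4 alone, 455 of the 997 were called. Scaling by total reads instead of the scaling in the FPKM moved the share of higher genes among those called to 63.9%, against 37.1%, and the median log2 fold change of all genes to 0.0767, against -0.0103, so small changes of single genes are relative to that scaling. In tissue RNA, fewer cells of a type and less RNA per cell cannot be told apart.

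Genes called with a mean of at least 1 FPKM and no overlap between the groups were ranked by fold change, and the 12 largest falls and 12 largest rises among them were described first. Several genes with overlapping groups had larger fold changes, among them Mmp12, Lep and Sfrp5 (higher) and Irf4 (lower), and are described with their lists. Among the 12 falls were genes of lipid transport and of peroxisomal and phospholipid metabolism. Apoc3, an apolipoprotein that restrains lipoprotein lipase, had 1.55, 2.58, 2.28, 2.22 and 0.4999 FPKM in CORT_15w libraries 1 to 5, against 8.67, 24.8, 27.96, 12.1 and 50.2 FPKM in VEH_15w libraries 1 to 5. Apoc3 had a log2 fold change of -3.01 (SE 0.42, adjusted p = 0.00713). Each of the 5 control libraries lay above every CORT_15w library, by a wide margin. Ehhadh, a bifunctional enzyme of peroxisomal fatty acid oxidation, had 13.3, 18.6, 34.2, 12.5 and 10.1 FPKM in CORT_15w, against 42.1, 70.3, 60.1, 56.6 and 105 FPKM in VEH_15w. Ehhadh had a log2 fold change of -1.92 (SE 0.31, adjusted p = 0.0105). Acot3, a peroxisomal acyl-CoA thioesterase, had 0.352, 1.46, 2.19, 0.606 and 0.262 FPKM in CORT_15w, against 4.75, 4.29, 5.29, 4.02 and 4.18 FPKM in VEH_15w. Acot3 had a log2 fold change of -1.57 (SE 0.24, adjusted p = 0.00844). VEH_15w library 5, which carried testis and epididymis transcripts, was the highest control for Apoc3 and Ehhadh but not for Acot3. Gpcpd1, which cleaves glycerophosphocholine, had 11.01, 18.8, 32.2, 22 and 15.6 FPKM in CORT_15w, against 69.3, 75.7, 81.95, 62.7 and 54.9 FPKM in VEH_15w. Gpcpd1 had a log2 fold change of -1.81 (SE 0.23, adjusted p = 0.00632). Gde1, another glycerophosphodiester phosphodiesterase, averaged 61.8 ± 25.9 FPKM in CORT_15w and 167 ± 23.4 FPKM in VEH_15w (log2 fold change -1.49, SE 0.23, adjusted p = 0.00844). Crls1, the cardiolipin synthase of mitochondria, averaged 47.3 ± 18.1 FPKM in CORT_15w and 132 ± 39.9 FPKM in VEH_15w (log2 fold change -1.50, SE 0.27, adjusted p = 0.0147).

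The other large falls touched signalling, ubiquitination and transport. Pde4d, a phosphodiesterase that degrades cyclic AMP, had 4.14, 5.27, 7.24, 5.18 and 6.22 FPKM in CORT_15w, against 14.4, 32.9, 27.4, 22.3 and 9.86 FPKM in VEH_15w. Pde4d had a log2 fold change of -1.66 (SE 0.28, adjusted p = 0.0119). Slc25a25, a mitochondrial carrier that exchanges ATP-Mg for phosphate, had 18.3, 11.4, 17.5, 10.6 and 18 FPKM in CORT_15w, against 44.8, 51.05, 51.1, 80.02 and 29.4 FPKM in VEH_15w. Slc25a25 had a log2 fold change of -1.66 (SE 0.24, adjusted p = 0.00818). For both genes VEH_15w library 5 was the lowest control. Rnf125, a ubiquitin ligase, averaged 40.6 ± 14.2 FPKM in CORT_15w and 135 ± 36.8 FPKM in VEH_15w (adjusted p = 0.00632), Gadd45g, a growth arrest and stress gene, 25.6 ± 13.3 FPKM in CORT_15w and 69.3 ± 6.58 FPKM in VEH_15w (adjusted p = 0.0109), and Ccbl2, a kynurenine aminotransferase, 8.65 ± 2.58 FPKM in CORT_15w and 26.4 ± 7.55 FPKM in VEH_15w (adjusted p = 0.00844). Mir1904, a microRNA gene, also fell (log2 fold change -1.60, SE 0.40, adjusted p = 0.0399). The authors' deposited table gives no adjusted p for Mir1904. Its adjusted p was 0.0531 with CORT_15w library 4 alone left out. At an adjusted p below 0.05, Apoc3, Gpcpd1, Rnf125, Pde4d, Slc25a25 and Acot3 were also called without the 3 libraries, whereas the values were 0.0673 for Ehhadh, 0.0801 for Gadd45g, 0.0778 for Crls1, 0.053 for Ccbl2, 0.06 for Gde1 and 0.16 for Mir1904.

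**Figure D2:**
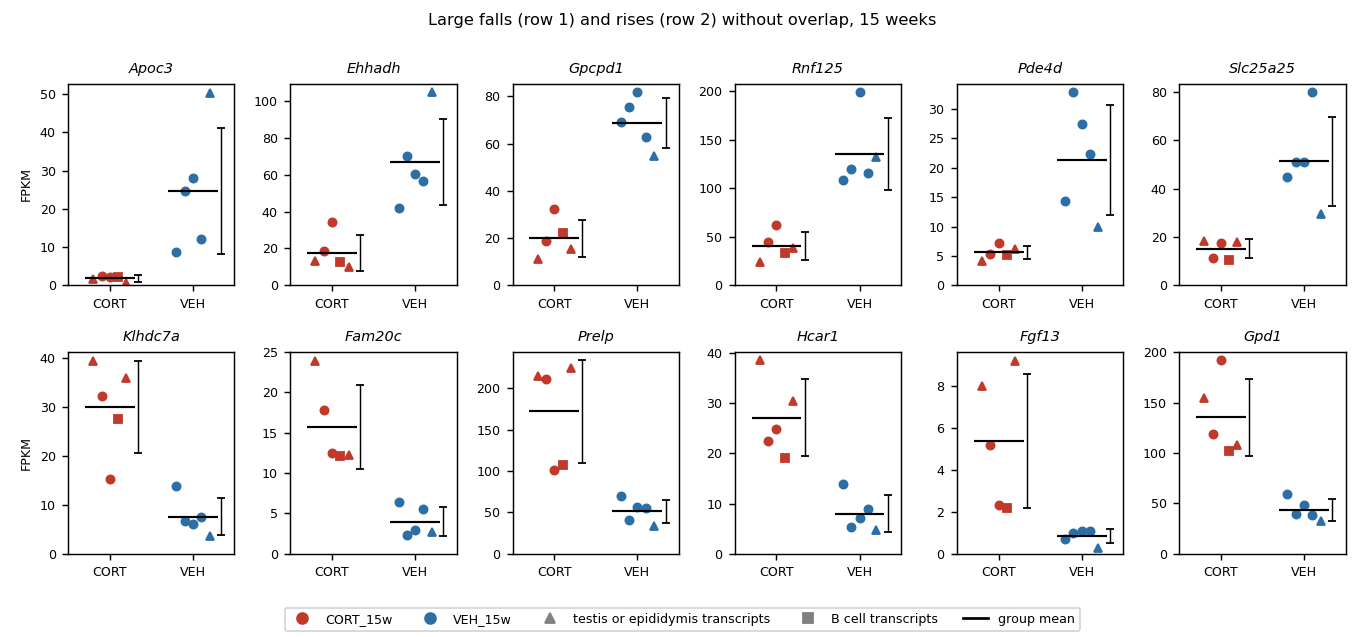
FPKM (vertical axis, linear from 0) of 6 of the 12 falls (upper row) and 6 of the 12 rises (lower row) with the largest fold changes among called genes whose groups do not overlap, in each library (red, CORT_15w; blue, VEH_15w; triangles and square, libraries with testis or epididymis and with B cell transcripts; line, group mean; bar, SD, n = 5). The groups do not overlap, as the choice of genes fixed, so what the panels show is the distance between them and the place of the marked libraries.

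Among the 12 rises chosen in the same way were genes of matrix proteins, membrane receptors and carriers, and glycerol metabolism. Gpd1, which makes the glycerol 3-phosphate used for triglyceride, had 154, 119, 192, 102 and 108 FPKM in CORT_15w libraries 1 to 5, against 59.2, 39.7, 47.8, 38.1 and 31.9 FPKM in VEH_15w libraries 1 to 5. Gpd1 had a log2 fold change of 1.61 (SE 0.20, adjusted p = 0.00632). The lowest CORT_15w library was well above the highest control. Klhdc7a, a kelch domain protein, had 39.4, 32.4, 15.2, 27.5 and 36.03 FPKM in CORT_15w, against 13.8, 6.72, 6.04, 7.56 and 3.66 FPKM in VEH_15w. Klhdc7a had a log2 fold change of 1.90 (SE 0.31, adjusted p = 0.0105). Hcar1, the lactate receptor through which adipocytes lower lipolysis, had 38.6, 22.4, 24.9, 18.99 and 30.5 FPKM in CORT_15w, against 13.8, 5.41, 7.18, 8.85 and 4.63 FPKM in VEH_15w. Hcar1 had a log2 fold change of 1.69 (SE 0.26, adjusted p = 0.00907). CORT_15w libraries 1 and 5, with testis transcripts, were the 2 highest for Hcar1 and Klhdc7a, with library 2 or 3 next. Slc5a7, a choline transporter, had 3.15, 4.698, 1.52, 1.66 and 3.69 FPKM in CORT_15w, against 0.585, 0.2303, 0.197, 0.177 and 0.0148 FPKM in VEH_15w. Slc5a7 had a log2 fold change of 1.61 (SE 0.23, adjusted p = 0.00749). Its controls were near 0, so the fold change on the log2(FPKM + 1) scale understates the ratio.

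Among matrix and secreted proteins, Prelp, a leucine-rich proteoglycan, averaged 172 ± 62.1 FPKM in CORT_15w and 50.9 ± 14.2 FPKM in VEH_15w (log2 fold change 1.69, SE 0.28, adjusted p = 0.0107). Fam20c, a kinase of secreted proteins, averaged 15.7 ± 5.18 FPKM in CORT_15w and 3.98 ± 1.85 FPKM in VEH_15w (log2 fold change 1.77, SE 0.26, adjusted p = 0.00818). Col15a1, a basement membrane collagen, had 92.1, 51.4, 29.6, 36.7 and 88.3 FPKM in CORT_15w, against 27.2, 15.3, 23.2, 24.4 and 8.21 FPKM in VEH_15w (log2 fold change 1.52, SE 0.38, adjusted p = 0.0392), where the 2 highest values were again CORT_15w libraries 1 and 5. Crtac1, an acidic matrix protein, averaged 5.36 ± 1.31 FPKM in CORT_15w and 1.22 ± 0.518 FPKM in VEH_15w (log2 fold change 1.52, SE 0.19, adjusted p = 0.00632). Dock8, a guanine nucleotide exchange factor of leukocytes, had 20.1, 19.8, 11.5, 14.9 and 25.8 FPKM in CORT_15w, against 5.48, 5.13, 5.33, 6.16 and 5.23 FPKM in VEH_15w. Dock8 had a log2 fold change of 1.54 (SE 0.17, adjusted p = 0.00632). Mest, an imprinted gene that rises in growing fat depots, averaged 102 ± 42.4 FPKM in CORT_15w and 35.3 ± 16.3 FPKM in VEH_15w (adjusted p = 0.0365), Fgf13, an intracellular growth factor homologue, 5.37 ± 3.203 FPKM in CORT_15w and 0.824 ± 0.337 FPKM in VEH_15w (adjusted p = 0.0183), and Hspb7, a small heat shock protein, 6.65 ± 3.93 FPKM in CORT_15w and 1.27 ± 0.393 FPKM in VEH_15w (adjusted p = 0.0312). Hspb7 had 8.53, 9.999 and 9.92 FPKM in CORT_15w libraries 1, 2 and 5, against 2.12 and 2.68 FPKM in libraries 3 and 4. Skeletal muscle markers were also highest in libraries 1, 2 and 5, and a link was not tested. Of these 12 genes, Gpd1, Dock8 and Crtac1 were called without the 3 libraries as well. The other 9 had adjusted p values of 0.0517 (Fam20c) to 0.159 (Hspb7) there. With CORT_15w library 4 alone left out, Col15a1 was not called (adjusted p = 0.0514).

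Hormones of fat cells differed in part. Of 15 adipokines tested by limma, 3 rose and none fell, against 2.55% and 4.32% of all genes. Voom on the recovered reads called the same number higher and 1, Cfd, lower. The median log2 fold change of the list was 0.06, of all genes -0.01. Lep, which encodes leptin, the satiety hormone of fat, had 222, 216, 37.6, 88.3 and 227 FPKM in CORT_15w libraries 1 to 5, against 56.8, 9.66, 23.5, 23.8 and 6.66 FPKM in VEH_15w libraries 1 to 5. Lep had a log2 fold change of 2.74 (SE 0.62, adjusted p = 0.0298). CORT_15w libraries 1, 2 and 5 stood highest and library 3 lay within the range of the controls. Sfrp5, a secreted Wnt inhibitor, had 67.3, 61.6, 8.52, 13.2 and 64.96 FPKM in CORT_15w, against 9.98, 3.79, 7.17, 5.39 and 1.52 FPKM in VEH_15w (log2 fold change 2.49, SE 0.61, adjusted p = 0.0384), again with libraries 1, 2 and 5 far above libraries 3 and 4. Apln, which encodes apelin, had 2.85, 2.57, 1.76, 3.602 and 2.61 FPKM in CORT_15w, against 0.757, 0.846, 0.695, 1.03 and 0.576 FPKM in VEH_15w (log2 fold change 1.03, SE 0.14, adjusted p = 0.00632) with no overlap. Cfd, which encodes adipsin, the complement factor D of fat, had 3003, 4641, 7473, 6238 and 3208 FPKM in CORT_15w, against 10299.5, 7802, 12831, 7809 and 8869 FPKM in VEH_15w (log2 fold change -1.02, SE 0.34, adjusted p = 0.09), lower in every CORT_15w library but not called by limma, whereas voom called it (adjusted p = 0.0477) and the authors' deposited table gives an adjusted p of 0.00486. Lcn2, lipocalin 2, had 53.3, 72.4, 6.69, 19.4 and 23.1 FPKM in CORT_15w, against 2.35, 3.82, 4.16, 5.19 and 30.7 FPKM in VEH_15w. Lcn2 had a log2 fold change of 1.97 (SE 0.68, adjusted p = 0.103). Without the 3 libraries the log2 fold change of Lep was 1.88 (adjusted p = 0.17), that of Sfrp5 1.49 (adjusted p = 0.205) and that of Apln 0.96 (adjusted p = 0.0525).

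Of 28 genes known to respond to glucocorticoid, Gpd1 rose and Cdkn1a and Ddit4 fell, against 6.86% called of all genes. The median log2 fold change was -0.36, with 23 below 0, and it was -0.29 without the 3 libraries and -0.21 without CORT_15w library 4 too. Cdkn1a, a cell cycle inhibitor, had 8.52, 9.18, 11.6, 12.3 and 12.5 FPKM in CORT_15w, against 20.4, 29.9, 21.1, 25.8 and 14.4 FPKM in VEH_15w. Cdkn1a had a log2 fold change of -0.96 (SE 0.18, adjusted p = 0.0165). Ddit4, an inhibitor of mTOR signalling, had 31.4, 47.3, 50.7, 33.1 and 30.4 FPKM in CORT_15w, against 106, 157, 99.1, 118 and 47.4 FPKM in VEH_15w (log2 fold change -1.37, SE 0.28, adjusted p = 0.0218), with VEH_15w library 5 the lowest control. Fkbp5, the receptor's co-chaperone and a common readout of glucocorticoid action, had 26.2, 40.97, 45.2, 50.6 and 24.7 FPKM in CORT_15w, against 44.8, 73.2, 39.4, 47.7 and 47.6 FPKM in VEH_15w. Fkbp5 had a log2 fold change of -0.44 (SE 0.22, adjusted p = 0.24), with overlapping ranges. Tsc22d3, the glucocorticoid-induced leucine zipper, averaged 95.8 ± 17.2 FPKM in CORT_15w and 129 ± 31.9 FPKM in VEH_15w (log2 fold change -0.41, SE 0.18, adjusted p = 0.194). Sgk1, a serum and glucocorticoid regulated kinase, averaged 29.1 ± 8.02 FPKM in CORT_15w and 45.3 ± 12.3 FPKM in VEH_15w (adjusted p = 0.121), Mt2, a metallothionein, 71.5 ± 42.6 FPKM in CORT_15w and 73.8 ± 20.9 FPKM in VEH_15w (adjusted p = 0.767), and Per1, a clock gene with receptor sites, 21.9 ± 4.33 FPKM in CORT_15w and 28.7 ± 8.25 FPKM in VEH_15w (adjusted p = 0.34). Among 11 genes of the receptor and of hormone activation, Ncoa1, a nuclear receptor coactivator, fell (log2 fold change -0.47, SE 0.12, adjusted p = 0.0416). Gpd1, Cdkn1a and Ddit4 were also called without the 3 libraries, and Ncoa1 was not (adjusted p = 0.161). Ncoa1 was not called with CORT_15w library 4 alone left out either (adjusted p = 0.0742). Nr3c1, the receptor itself, averaged 48.9 ± 5.57 FPKM in CORT_15w and 56.3 ± 12.4 FPKM in VEH_15w (adjusted p = 0.484), and Hsd11b1, the enzyme that regenerates active hormone, 115 ± 28.8 FPKM in CORT_15w and 130.4 ± 55.1 FPKM in VEH_15w (adjusted p = 0.8).

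Of 19 clock genes 6 were called by limma, 2 higher and 4 lower, against 2.55% and 4.32% of all genes. Voom on the recovered reads called 2 higher and 3 lower. The median log2 fold change was 0.18, of all genes -0.01. The clock is a loop in which ARNTL and CLOCK drive genes with E-boxes, among them Cry1, Dbp and Bhlhe41, and receptors of the ROR and REV-ERB families act on Arntl and Nfil3 through another element. Promoter windows of 4 called clock genes are shown because they hold such elements. They run from 250 bases before to 50 after an annotated start (RefSeq, GRCm38.p6), 5′ to 3′ on the gene's strand. Capitals mark TAGGTCA, read on both strands, in Arntl (chr7:113207261-113207560, plus strand) and Nfil3 (chr13:52980990-52981289, minus strand), and CACGTG in Cry1 (chr10:85185005-85185304, minus strand) and Bhlhe41 (chr6:145865371-145865670, minus strand).
Arntl: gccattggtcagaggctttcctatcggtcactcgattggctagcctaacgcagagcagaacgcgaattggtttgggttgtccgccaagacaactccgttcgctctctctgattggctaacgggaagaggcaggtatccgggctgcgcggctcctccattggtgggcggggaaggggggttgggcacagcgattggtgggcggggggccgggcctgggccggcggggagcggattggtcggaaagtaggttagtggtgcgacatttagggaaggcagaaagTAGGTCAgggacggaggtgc
Nfil3: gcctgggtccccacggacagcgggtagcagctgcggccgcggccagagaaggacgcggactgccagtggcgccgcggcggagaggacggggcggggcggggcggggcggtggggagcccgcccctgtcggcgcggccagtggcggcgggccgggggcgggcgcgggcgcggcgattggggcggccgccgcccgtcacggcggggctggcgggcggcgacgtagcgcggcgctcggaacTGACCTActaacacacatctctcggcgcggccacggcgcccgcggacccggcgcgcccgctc
Cry1: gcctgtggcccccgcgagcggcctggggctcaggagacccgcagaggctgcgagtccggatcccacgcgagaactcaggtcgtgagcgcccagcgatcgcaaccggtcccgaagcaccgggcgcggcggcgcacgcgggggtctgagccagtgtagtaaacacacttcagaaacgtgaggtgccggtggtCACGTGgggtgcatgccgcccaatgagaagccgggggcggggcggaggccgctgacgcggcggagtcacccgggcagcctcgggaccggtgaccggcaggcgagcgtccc
Bhlhe41: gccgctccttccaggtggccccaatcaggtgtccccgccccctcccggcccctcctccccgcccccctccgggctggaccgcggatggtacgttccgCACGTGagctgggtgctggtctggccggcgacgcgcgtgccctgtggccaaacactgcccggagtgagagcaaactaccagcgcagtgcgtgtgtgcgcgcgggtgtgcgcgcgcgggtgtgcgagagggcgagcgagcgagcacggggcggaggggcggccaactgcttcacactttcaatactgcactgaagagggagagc
Among all 32851 windows searched, 2.61% held TAGGTCA and 7.15% held CACGTG, and no window shown held both. The match in Nfil3 lies on the opposite strand, and a second, overlapping window of Arntl and the windows of Clock (3) and Dbp (1) held neither motif. A match describes the letters of the window and no binding was measured here.

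Both genes shown with TAGGTCA fell. Arntl, the clock activator BMAL1, had 4.495, 5.4, 2.02, 3.89 and 6.19 FPKM in CORT_15w libraries 1 to 5, against 6.87, 8.97, 10.4, 7.74 and 10.8 FPKM in VEH_15w libraries 1 to 5. Arntl had a log2 fold change of -0.92 (SE 0.22, adjusted p = 0.0333). Nfil3, a repressor of D-box genes, had 3.105, 3.71, 3.17, 4.22 and 4.44 FPKM in CORT_15w, against 7.897, 7.72, 7.37, 6.91 and 5.47 FPKM in VEH_15w. Nfil3 had a log2 fold change of -0.77 (SE 0.12, adjusted p = 0.0089). The groups did not overlap in either gene. Of the genes shown with CACGTG, Cry1, a repressor of ARNTL and CLOCK, had 3.16, 3.62, 4.52, 3.39 and 3.97 FPKM in CORT_15w, against 6.198, 7.63, 9.11, 6.36 and 5.66 FPKM in VEH_15w. Cry1 had a log2 fold change of -0.75 (SE 0.13, adjusted p = 0.0126). Bhlhe41, another E-box repressor, had 2.72, 2.57, 3.204, 2.51 and 1.73 FPKM in CORT_15w, against 1.25, 1.26, 0.764, 1.44 and 0.605 FPKM in VEH_15w. Bhlhe41 had a log2 fold change of 0.79 (SE 0.15, adjusted p = 0.0169). Cry1 was lower and Bhlhe41 higher in every CORT_15w library. Clock itself had 17.6, 22.1, 17.02, 19.2 and 23.5 FPKM in CORT_15w, against 27.8, 27.5, 34.5, 23.6 and 24.7 FPKM in VEH_15w. Clock had a log2 fold change of -0.45 (SE 0.12, adjusted p = 0.0481). Dbp, a D-box activator, had 4.48, 2.33, 6.35, 4.49 and 2.85 FPKM in CORT_15w, against 1.76, 1.71, 0.585, 2.42 and 1.25 FPKM in VEH_15w. Dbp had a log2 fold change of 0.99 (SE 0.24, adjusted p = 0.0386). Npas2, a partner of ARNTL like CLOCK, averaged 1.41 ± 0.485 FPKM in CORT_15w and 3.09 ± 1.401 FPKM in VEH_15w (adjusted p = 0.1), Tef, a D-box activator, 35.7 ± 6.42 FPKM in CORT_15w and 25.7 ± 5.13 FPKM in VEH_15w (adjusted p = 0.088), Nr1d1, which encodes REV-ERB alpha, 25.2 ± 5.45 FPKM in CORT_15w and 18.01 ± 3.97 FPKM in VEH_15w (adjusted p = 0.113), and Per3 15.7 ± 2.31 FPKM in CORT_15w and 11.2 ± 4.52 FPKM in VEH_15w (adjusted p = 0.19), and none of these was called by limma or voom. The authors' deposited table gives adjusted p values of 0.0262 for Npas2 and 0.0327 for Tef. The hour of sampling was not given in the sources used here, and its part in these values was not tested. Without the 3 libraries Nfil3 was called (adjusted p = 0.0253). Cry1, Bhlhe41, Arntl, Clock and Dbp had adjusted p values of 0.0574, 0.0517, 0.0802, 0.11 and 0.137 there. With CORT_15w library 4 alone left out, Arntl, Clock and Dbp were not called (adjusted p = 0.0637, 0.0873 and 0.0737).

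**Figure D3:**
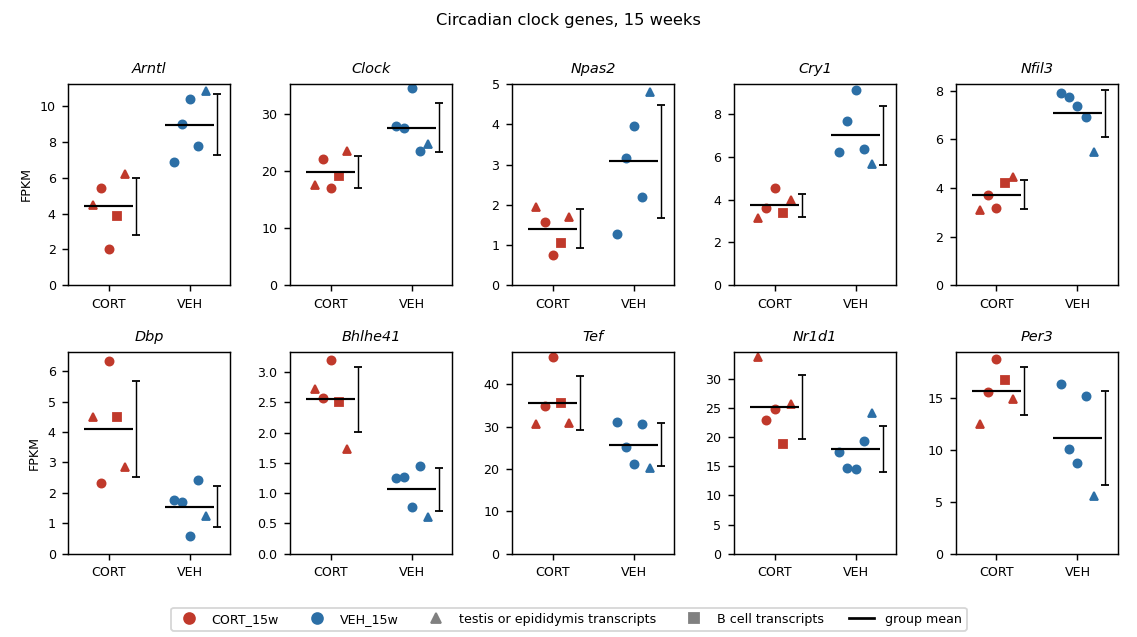
FPKM (vertical axis, linear from 0) of 10 clock genes in each library (red, CORT_15w; blue, VEH_15w; triangles and square, libraries with testis or epididymis and with B cell transcripts; line, group mean; bar, SD, n = 5). Arntl, Clock, Cry1 and Nfil3 were lower and Bhlhe41 higher in every CORT_15w library than in every VEH_15w library.

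Of 18 genes of triglyceride synthesis, Dgat2 and Gpd1 rose, Gpam, Acsl4 and Dgat1 fell, and the others were not called (median log2 fold change -0.25). Of all genes, 2.55% were called higher and 4.32% lower. Dgat2, which adds the last fatty acid to triglyceride, had 223, 149, 127, 107 and 173 FPKM in CORT_15w libraries 1 to 5, against 73.6, 56.3, 54.4, 61.7 and 36.1 FPKM in VEH_15w libraries 1 to 5. Dgat2 had a log2 fold change of 1.44 (SE 0.22, adjusted p = 0.00844). Gpam, which adds the first, had 68.4, 67.1, 116, 58.7 and 76.5 FPKM in CORT_15w, against 141, 226, 214, 175 and 160.5 FPKM in VEH_15w. Gpam had a log2 fold change of -1.25 (SE 0.19, adjusted p = 0.00844). Both genes separated the groups fully, in opposite directions. Acsl4, an acyl-CoA synthetase that prefers arachidonate, averaged 12.6 ± 2.64 FPKM in CORT_15w and 22.02 ± 2.899 FPKM in VEH_15w (log2 fold change -0.78, SE 0.14, adjusted p = 0.0165). In fatty acid synthesis, 20 genes tested, Srebf1, the lipogenic transcription factor SREBP1, had 49.9, 31.2, 36.3, 35.2 and 28.2 FPKM in CORT_15w, against 21.5, 12.2, 11.7, 15.7 and 10.4 FPKM in VEH_15w. Srebf1 had a log2 fold change of 1.30 (SE 0.20, adjusted p = 0.00844). Acacb, the acetyl-CoA carboxylase that restrains mitochondrial oxidation, had 35.5, 54.6, 97.01, 39.6 and 33.8 FPKM in CORT_15w, against 110.3, 136, 111, 131 and 80.5 FPKM in VEH_15w. Acacb had a log2 fold change of -1.21 (SE 0.27, adjusted p = 0.029). Pnpla3, a lipase relative controlled by SREBP1, was the 1 gene called of 20 adipocyte genes, and it rose (log2 fold change 1.42, SE 0.28, adjusted p = 0.0174). Dgat2, Gpd1 and Srebf1 were also called without the 3 libraries. No gene of triglyceride synthesis was called lower there. Adjusted p was then 0.0628 for Gpam, 0.0566 for Acsl4, 0.101 for Acacb and 0.0997 for Pnpla3. With CORT_15w library 4 alone left out, Acacb was not called (adjusted p = 0.0597).

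Genes of lipid release and uptake that were called were lower in CORT_15w, except Plin3. The counts in this paragraph stand against 2.55% of all genes called higher and 4.32% called lower. In a list of 19 genes of lipolysis and lipid droplets (median 0.18), Pnpla2 and Pde3b were among those that fell, and Plin3 rose. Pnpla2, the adipose triglyceride lipase, had 482, 533, 697, 440.4 and 542 FPKM in CORT_15w, against 877, 868, 984, 890.5 and 622 FPKM in VEH_15w. Pnpla2 had a log2 fold change of -0.65 (SE 0.17, adjusted p = 0.0417). Pde3b, which carries the antilipolytic signal of insulin, averaged 176 ± 47.2 FPKM in CORT_15w and 301 ± 47.4 FPKM in VEH_15w (log2 fold change -0.80, SE 0.18, adjusted p = 0.0309). Plin3, a droplet coat protein, averaged 21.6 ± 1.51 FPKM in CORT_15w and 15.6 ± 1.85 FPKM in VEH_15w (log2 fold change 0.45, SE 0.091, adjusted p = 0.0215). In uptake, 2 of 14 genes fell: Slc27a1, a fatty acid transporter, had 228, 274, 397, 279 and 227 FPKM in CORT_15w, against 530.2, 600.1, 624, 605 and 481 FPKM in VEH_15w. Slc27a1 had a log2 fold change of -1.04 (SE 0.16, adjusted p = 0.00954). Apoc1, an apolipoprotein, averaged 84.02 ± 38.8 FPKM in CORT_15w and 232 ± 100.5 FPKM in VEH_15w (log2 fold change -1.48, SE 0.35, adjusted p = 0.0336). Lpl, lipoprotein lipase, averaged 1843 ± 393 FPKM in CORT_15w and 3036 ± 514 FPKM in VEH_15w and was not called by limma (log2 fold change -0.73, SE 0.22, adjusted p = 0.0673), although the groups did not overlap; voom called it (adjusted p = 0.0442), and the authors' deposited table gives an adjusted p of 0.00104. In mitochondrial oxidation Cpt1a, the gatekeeper of fatty acid entry, rose (log2 fold change 0.57, SE 0.097, adjusted p = 0.0126) and Echs1, an enoyl-CoA hydratase, fell (log2 fold change -0.52, SE 0.14, adjusted p = 0.0446), out of 19. In oxidative phosphorylation 29 of 31 log2 fold changes were below 0 (median -0.21), against 7518 of all 14527 genes, and 1 gene was called. The median of that list was -0.19 without the 3 libraries and -0.10 without CORT_15w library 4 too. Of 22 cholesterol genes, consecutive kinases of the mevalonate pathway were called in opposite directions: Mvk rose (log2 fold change 0.50, SE 0.11, adjusted p = 0.0267) and Pmvk fell (log2 fold change -0.82, SE 0.13, adjusted p = 0.0105). None of 7 thermogenic genes was called by limma or voom, and 2 had an unadjusted p below 0.05. Without the 3 libraries no gene of lipolysis or uptake was called. Adjusted p was then 0.11 for Pnpla2, 0.13 for Pde3b, 0.0671 for Plin3, 0.0593 for Slc27a1 and 0.134 for Apoc1. Pmvk was called there while Cpt1a, Echs1 and Mvk were not (0.0729, 0.182 and 0.15). With CORT_15w library 4 alone left out, adjusted p was 0.0817 for Pnpla2, 0.0632 for Pde3b, 0.087 for Echs1 and 0.0519 for Mvk.

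Of 27 genes of insulin and glucose handling, 2 rose and 3 fell, against 2.55% and 4.32% of all genes. Insr, the insulin receptor, had 38.1, 46.8, 64.8, 46.4 and 49.5 FPKM in CORT_15w, against 75.03, 83.2, 74.4, 71.9 and 55.9 FPKM in VEH_15w. Insr had a log2 fold change of -0.55 (SE 0.14, adjusted p = 0.0437). Slc2a4, which encodes the insulin-regulated glucose transporter GLUT4, had 31.6, 25.9, 16.7, 28.4 and 33.2 FPKM in CORT_15w, against 18.4, 14.2, 19.1, 13.7 and 15.7 FPKM in VEH_15w. Slc2a4 had a log2 fold change of 0.68 (SE 0.17, adjusted p = 0.0411). Grb14, an adaptor that inhibits the insulin receptor, had 9.398, 9.09, 3.98, 6.43 and 6.75 FPKM in CORT_15w, against 5.46, 2.21, 2.27, 1.72 and 1.99 FPKM in VEH_15w. Grb14 had a log2 fold change of 1.15 (SE 0.26, adjusted p = 0.0292). CORT_15w library 3 lay among the controls for Slc2a4, and VEH_15w library 1 lay among the CORT_15w libraries for Grb14. Gys2, a glycogen synthase, fell (log2 fold change -0.61, SE 0.16, adjusted p = 0.0438). Socs2, an inhibitor of growth hormone signalling, had 2.93, 4.505, 4.299, 4.505 and 3.72 FPKM in CORT_15w, against 8.86, 9.31, 7.86, 7.99 and 8.98 FPKM in VEH_15w. Socs2 had a log2 fold change of -0.95 (SE 0.11, adjusted p = 0.00632). Igfals, which binds insulin-like growth factors in complexes, rose (log2 fold change 0.71, SE 0.18, adjusted p = 0.0427). In retinoid metabolism Dhrs3, a retinaldehyde reductase, averaged 82.8 ± 13.1 FPKM in CORT_15w and 39.3 ± 5.39 FPKM in VEH_15w (log2 fold change 1.05, SE 0.13, adjusted p = 0.00632) and Rbp7, a retinol-binding protein of adipocytes and vessels, 163 ± 39.5 FPKM in CORT_15w and 322 ± 77.04 FPKM in VEH_15w (log2 fold change -0.99, SE 0.22, adjusted p = 0.0292). Socs2 and Dhrs3 were also called without the 3 libraries, where adjusted p was 0.0986 for Insr, 0.215 for Slc2a4, 0.16 for Grb14, 0.123 for Gys2, 0.105 for Igfals and 0.0517 for Rbp7. Without CORT_15w library 4 too, the log2 fold change of Slc2a4 was 0.34. With that library alone left out, adjusted p was 0.0816 for Insr, 0.0787 for Slc2a4, 0.0527 for Grb14 and 0.086 for Gys2.

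In lists of progenitor, matrix and mural cell genes most calls were rises. Of 21 genes of fat expansion and progenitors, 5 rose (Bmp3, Gdf10, Mest, Sfrp5 and Zfp423) and 3 fell (Dpp4, Peg3 and Zim1), against 2.55% and 4.32% of all genes. Zfp423, a transcription factor of preadipocytes, had 12.9, 10.4, 8.83, 9.96 and 10.4 FPKM in CORT_15w, against 5.68, 5.15, 4.13, 5.36 and 3.38 FPKM in VEH_15w. Zfp423 had a log2 fold change of 1.01 (SE 0.13, adjusted p = 0.00632). Dpp4, a surface protease of early progenitors, had 6.58, 8.71, 5.45, 7.78 and 7.79 FPKM in CORT_15w, against 8.41, 12.7, 13.8, 14.8 and 16.5 FPKM in VEH_15w. Dpp4 had a log2 fold change of -0.77 (SE 0.17, adjusted p = 0.0272). Zim1, an imprinted zinc finger gene, had 2.85, 15.3, 8.44, 7.998 and 7.34 FPKM in CORT_15w, against 18.9, 20.96, 22.9, 18.1 and 31.4 FPKM in VEH_15w. Zim1 had a log2 fold change of -1.44 (SE 0.31, adjusted p = 0.0267). Of 33 matrix genes, 5 rose and none fell (median 0.33): Col5a1 averaged 27.99 ± 7.91 FPKM in CORT_15w and 14.5 ± 2.52 FPKM in VEH_15w (log2 fold change 0.87, SE 0.19, adjusted p = 0.0287), Col6a1 86.4 ± 22.3 FPKM in CORT_15w and 46.1 ± 7.63 FPKM in VEH_15w (log2 fold change 0.86, SE 0.20, adjusted p = 0.035). Col15a1, Col6a2 and Mmp12 also rose. Without the 3 libraries the median of the matrix list was 0.24, and without CORT_15w library 4 too it was 0.09. Of 14 smooth muscle and pericyte genes, 3 rose and none fell (median 0.29). Notch3, a receptor of mural cells, had 10.2, 7.42, 7.56, 8.47 and 8.17 FPKM in CORT_15w, against 4.19, 4.96, 2.88, 5.08 and 2.37 FPKM in VEH_15w (log2 fold change 0.97, SE 0.17, adjusted p = 0.0141), Cspg4, the pericyte proteoglycan NG2, averaged 4.48 ± 0.8498 FPKM in CORT_15w and 1.85 ± 0.695 FPKM in VEH_15w (log2 fold change 0.97, SE 0.18, adjusted p = 0.0161). Acta2, smooth muscle actin, averaged 38.9 ± 16.1 FPKM in CORT_15w and 16.9 ± 3.304 FPKM in VEH_15w (log2 fold change 1.09, SE 0.25, adjusted p = 0.0324). The summed level of the 14 mural genes was 159.9 to 221.5 FPKM in CORT_15w and 97.0 to 177.3 FPKM in VEH_15w. When the 3 libraries were left out, 1 progenitor gene, Zfp423, and 1 matrix gene were called higher, and no mural gene was called. Adjusted p was then 0.129 for Dpp4, 0.0747 for Zim1, 0.164 for Col5a1, 0.185 for Col6a1, 0.0695 for Notch3, 0.0628 for Cspg4 and 0.184 for Acta2. With CORT_15w library 4 alone left out, adjusted p was 0.0573 for Col5a1 and 0.0673 for Col6a1.

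**Figure D4:**
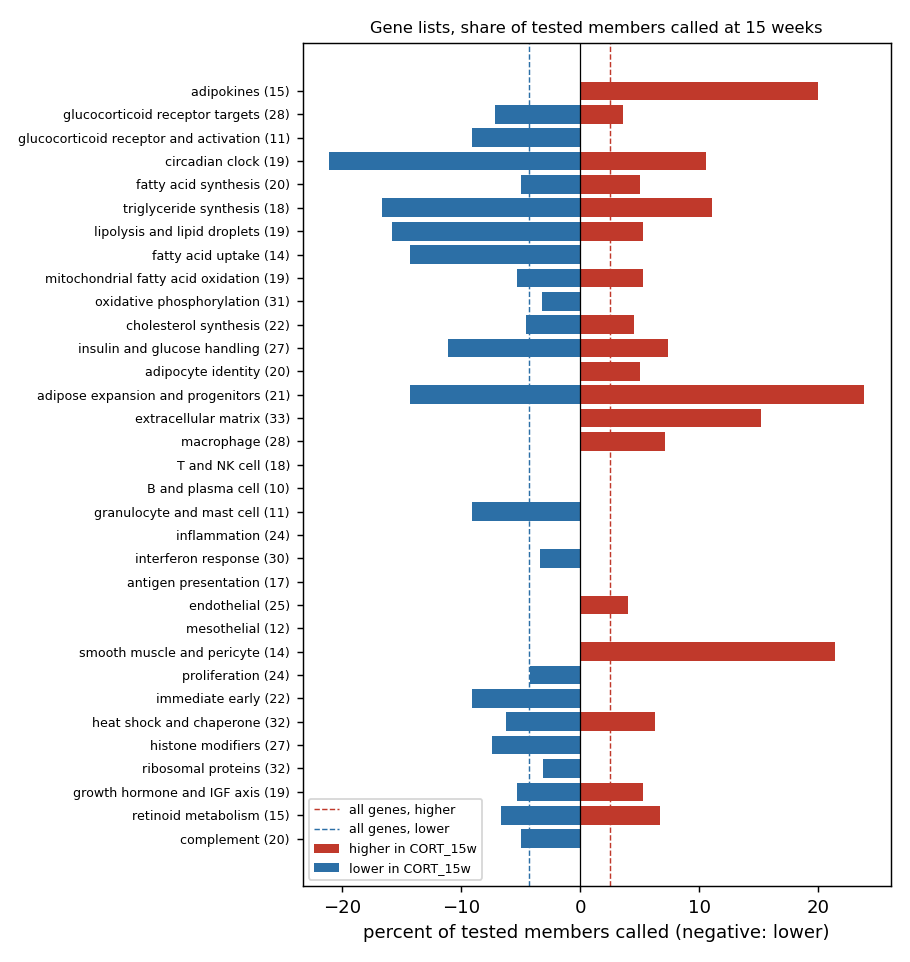
Share of the tested members of each gene list (number in brackets) called higher (red, to the right) or lower (blue, to the left) in CORT_15w than in VEH_15w, for lists with at least 10 tested members. Dashed lines mark the shares over all 14527 genes, 2.55% higher and 4.32% lower.

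Of 28 macrophage genes, 2 rose in limma's test, and voom called neither (adjusted p = 0.054 and 0.0561): Mmp12, macrophage elastase, had 21.5, 5.897, 70.8, 72.6 and 4.46 FPKM in CORT_15w libraries 1 to 5, against 4.72, 1.81, 1.54, 1.02 and 1.51 FPKM in VEH_15w libraries 1 to 5. Mmp12 had a log2 fold change of 2.88 (SE 0.71, adjusted p = 0.0392). Itgax, the integrin CD11c, had 7.81, 2.79, 15.9, 10.7 and 2.07 FPKM in CORT_15w, against 2.597, 1.11, 0.984, 1.02 and 0.939 FPKM in VEH_15w. Itgax had a log2 fold change of 1.69 (SE 0.43, adjusted p = 0.0418). For both, CORT_15w libraries 3 and 4 were the highest and library 5 the lowest of the group, within the range of the controls. Those 2 calls among 28 genes stand against 6.86% called of all genes. The median log2 fold change of the macrophage list was 0.28, with 21 genes above 0 and 7 below, and 0.51 without the 3 libraries. The summed level of the 28 macrophage genes was 2857 to 3883 FPKM in CORT_15w and 3898 to 5387 FPKM in VEH_15w. The sum weighs genes by their level, so it went the other way from most members. No member was called among 18 genes of T and NK cells, 10 of B and plasma cells, 6 lymph node, 24 inflammation, 17 antigen presentation and 12 mesothelial genes in limma's test, with 0, 0, 1, 1, 3 and 3 of them at an unadjusted p below 0.05, and voom on the recovered reads called 0 in each list. Irf4, counted among 30 interferon response genes and also a regulator of lipolysis in fat, had 8.68, 31.4, 142, 33.4 and 23.7 FPKM in CORT_15w, against 149, 272, 249, 256 and 58.5 FPKM in VEH_15w. Irf4 had a log2 fold change of -2.40 (SE 0.64, adjusted p = 0.0468). Of 25 endothelial genes Aplnr, the apelin receptor, rose (log2 fold change 0.90, SE 0.18, adjusted p = 0.0218), while Elane, neutrophil elastase, fell among 11 granulocyte genes (log2 fold change -0.74, SE 0.16, adjusted p = 0.0271). C6, a component of the complement attack complex, was the 1 of 20 complement genes called and had 16.1, 20.3, 27.97, 28.8 and 20.7 FPKM in CORT_15w, against 64.2, 44.6, 71, 48.7 and 32.99 FPKM in VEH_15w. C6 had a log2 fold change of -1.15 (SE 0.22, adjusted p = 0.0165). C6 was also called without the 3 libraries, where adjusted p was 0.0779 for Mmp12, 0.0861 for Itgax, 0.0861 for Irf4, 0.0752 for Aplnr and 0.132 for Elane. Irf4 was not called by voom either (adjusted p = 0.0513), and the authors' deposited table gives an adjusted p of 0.0592. With CORT_15w library 4 alone left out, adjusted p in limma's test was 0.0703 for Mmp12, 0.0832 for Itgax and 0.0802 for Irf4.

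In the lists that follow, 1 to 4 genes each were called, against 6.86% of all genes. The counts among immediate early genes, histone modifiers and proliferation genes were near that share. Of 22 immediate early genes 2 fell: Nr4a3, an orphan nuclear receptor, had 0.989, 1.42, 5.81, 1.03 and 0.666 FPKM in CORT_15w, against 5.58, 12.7, 7.29, 10.3 and 12.3 FPKM in VEH_15w. Nr4a3 had a log2 fold change of -1.995 (SE 0.36, adjusted p = 0.0152). Fosl2, an AP-1 subunit, had 10.3, 13.2, 13.5, 12.8 and 12.9 FPKM in CORT_15w, against 25.8, 23.5, 24.2, 27.2 and 12.2 FPKM in VEH_15w. Fosl2 had a log2 fold change of -0.76 (SE 0.19, adjusted p = 0.0395). CORT_15w library 3 overlapped the controls for Nr4a3, and VEH_15w library 5 lay among the CORT_15w libraries for Fosl2. Of 32 heat shock and chaperone genes, Hspb7 and Cryab, a lens crystallin that acts as a chaperone, rose (Cryab log2 fold change 1.23, SE 0.31, adjusted p = 0.0395), and Asns, asparagine synthetase, and Hspb8 fell (Asns log2 fold change -1.12, SE 0.21, adjusted p = 0.0165; Hspb8 log2 fold change -0.41, SE 0.087, adjusted p = 0.0239). Cryab, like Hspb7, was highest in CORT_15w libraries 1, 2 and 5 (34.5, 33.7 and 37.1 FPKM), against 11.6 and 14.7 FPKM in libraries 3 and 4. Of 27 histone modifiers 2 fell: Suz12, a subunit of the Polycomb complex that writes H3K27me3 (log2 fold change -0.52, SE 0.12, adjusted p = 0.0337), and Kdm5a, an H3K4 demethylase (log2 fold change -0.38, SE 0.1, adjusted p = 0.0434). Mcm7, part of the replication helicase, was the 1 of 24 proliferation genes called (log2 fold change -0.35, SE 0.083, adjusted p = 0.0344). Among genes listed as liver markers, Cyp2e1, a cytochrome P450 that fat also expresses, fell to 775, 1461, 2584, 1630.0 and 1029 FPKM in CORT_15w, against 3823, 3025, 4607, 3454 and 3123 FPKM in VEH_15w. Cyp2e1 had a log2 fold change of -1.37 (SE 0.31, adjusted p = 0.0292). Fosl2 was also called without the 3 libraries. Adjusted p was there 0.105 for Nr4a3, 0.204 for Cryab, 0.0773 for Asns, 0.0881 for Hspb8, 0.102 for Suz12, 0.0928 for Kdm5a, 0.163 for Mcm7 and 0.137 for Cyp2e1. With CORT_15w library 4 alone left out, adjusted p was 0.0682 for Fosl2, 0.0571 for Suz12, 0.0746 for Kdm5a and 0.0682 for Mcm7.

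Effects at 15 weeks were next set beside those at 5 weeks, the time labelled as active, where 6628 of 14516 tested genes (45.7%) were called. The comparisons share no library. At 5 weeks CORT_5w library 3 (Prm2 184 FPKM), CORT_5w library 4 (Crisp1 1430 FPKM) and VEH_5w library 3 (Crisp1 649 FPKM) also carried testis or epididymis transcripts. The calls at 5 weeks were not fitted without them. Of the 997 genes called at 15 weeks, 989 were tested at 5 weeks, and 668 were called there in the same direction, 272 higher and 396 lower at both times. These 668 genes were 67.0% of the genes called at 15 weeks and 10.1% of those called at 5 weeks. The difference between the effects (15 minus 5 weeks, 20 libraries) was called for 2600 of 15601 genes (16.7%), among them 206 of the 997. Of the 6628 genes called at 5 weeks, 2279 had a called difference.

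Of the genes called alike at both times, 25 tied at the smallest value of the larger adjusted p (0.00632), Gpd1 and Gpcpd1 among them. From these, 10 were taken with no order among the tied: Zpr1, Rnf125, Rnf185, Tead1, Sik3, Cyp4f17, Sidt2 and Mapkbp1, which were lower, and Crtac1 and Dhrs3, which were higher. Sik3, a kinase that restrains cyclic AMP responsive transcription, had 12.5, 12.1, 13.5, 10.5 and 11.8 FPKM in CORT_15w, against 20.04, 26.01, 21.8, 22.9 and 21.6 FPKM in VEH_15w. Sik3 had a log2 fold change of -0.84 (SE 0.09, adjusted p = 0.00632). At 5 weeks it averaged 6.44 ± 0.983 FPKM in CORT_5w and 19.5 ± 4.36 FPKM in VEH_5w (log2 fold change -1.44, adjusted p = 5.34e-05). Tead1, a transcription factor of the Hippo pathway, averaged 27.4 ± 5.02 FPKM in CORT_15w and 59.6 ± 11.6 FPKM in VEH_15w at 15 weeks (log2 fold change -1.09, SE 0.15, adjusted p = 0.00632), and 18.97 ± 3.35 FPKM in CORT_5w and 59.6 ± 17.9 FPKM in VEH_5w at 5 weeks (log2 fold change -1.57, adjusted p = 0.000181). Log2 fold changes at 15 and 5 weeks were -1.08 and -0.81 for Zpr1, -1.05 and -0.78 for Rnf185, -1.08 and -1.72 for Cyp4f17, -0.73 and -0.98 for Sidt2, and -0.99 and -1.33 for Mapkbp1. Of these 10, Sik3 alone had a called difference between the times (0.60, adjusted p = 0.026). Without the 15 week libraries with testis or epididymis transcripts, Rnf185 and Tead1 were not called at 15 weeks (adjusted p = 0.0517 and 0.052). The others of these 10 were called there.

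The genes with the smallest p of the difference were changed at 5 weeks and not called by limma at 15 weeks. They were Acly, Acss2, Fabp5, Prdx6, Lpcat3, Cdr2, Ykt6, Hspb1, Aldoa and Pgam1. The authors' deposited table gives adjusted p values at 15 weeks of 0.00774 for Acly and 0.0146 for Cdr2. For the others it gives 0.172 (Fabp5) or more. Acly, ATP citrate lyase, which makes the acetyl-CoA for fatty acids, had 40.4, 41.1, 32.6, 40.4 and 38.4 FPKM in CORT_15w, against 33.7, 32.5, 32.6, 30.2 and 31.8 FPKM in VEH_15w. Acly had a log2 fold change of 0.25 (SE 0.08, adjusted p = 0.0834). At 5 weeks it averaged 157 ± 32.2 FPKM in CORT_5w and 34.7 ± 3.47 FPKM in VEH_5w (log2 fold change 2.12, adjusted p = 4.89e-06), and the difference of the effects was -1.87, adjusted p = 2.88e-06. Fabp5, a fatty acid binding protein, averaged 78.5 ± 20.5 FPKM in CORT_15w and 59.97 ± 10.7 FPKM in VEH_15w at 15 weeks (log2 fold change 0.36, SE 0.18, adjusted p = 0.222) and 374 ± 59.3 FPKM in CORT_5w and 55.1 ± 9.5 FPKM in VEH_5w at 5 weeks (difference -2.38, adjusted p = 1.26e-05). Acss2, a cytosolic acetyl-CoA synthetase, had log2 fold changes of -0.14 at 15 weeks and 1.95 at 5 weeks, Prdx6, a peroxiredoxin, of 0.14 and 2.11, and Aldoa, the glycolytic aldolase, of -0.04 and 1.52. In the same order of times the values were -0.15 and 0.90 for Lpcat3, 0.62 and 2.84 for Cdr2, 0.12 and 1.04 for Ykt6, 0.22 and 2.25 for Hspb1, and 0.02 and 0.97 for Pgam1.

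Among the genes described above, Dgat2, Hspb7, Slc5a7 and Fgf13 rose at both times with a smaller effect at 15 weeks (differences -1.71, adjusted p = 0.000829; -2.46, adjusted p = 0.0047; -1.90, adjusted p = 0.000445; -1.38, adjusted p = 0.038). Lep, Gpd1 and Srebf1 also rose at both times, with differences that were not called. Hcar1 and Apln were called at 15 weeks and not at 5 weeks, and their effects differed (1.98, adjusted p = 0.00843; 0.73, adjusted p = 0.0279). Slc25a25 was lower at 15 weeks and not called at 5 weeks (-1.74, adjusted p = 0.00333), and Cfd, with a log2 fold change of -4.27 at 5 weeks, had a difference of 3.25, adjusted p = 0.000159. Apoc3, the first of the falls described above, had a log2 fold change of -0.78 at 5 weeks, and the difference was not called (-2.23, adjusted p = 0.148).

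**Figure D5:**
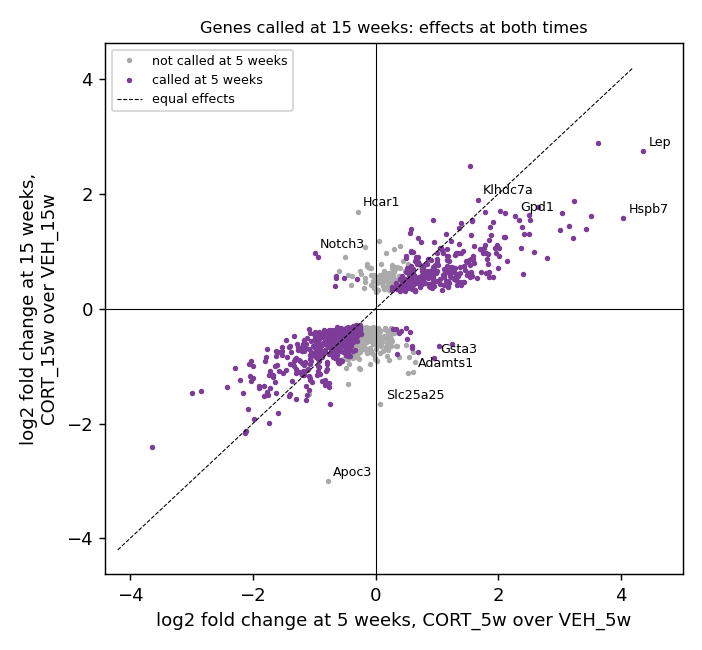
Log2 fold change at 5 weeks (horizontal axis, CORT_5w over VEH_5w) against that at 15 weeks (vertical axis, CORT_15w over VEH_15w) for the 989 genes called at 15 weeks and tested at both times (purple, called at 5 weeks; grey, not called; dashed line, equal effects). Most purple points lie in the 2 quadrants of equal direction, 668 genes, and 21 lie in the others.

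The authors' deposited table of the same comparison lists 985 genes higher and 1228 lower at an adjusted p below 0.05. Of the 997 genes called here, 984 were called in the authors' deposited table, and 0 of these in the opposite direction.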

How the data were processed

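The 10 RNA libraries were grouped by the labels. The authors deposited FPKM per gene and library. Per the submitters' processing notes, tools were Bowtie, TopHat, DiffBind and DESeq2 and builds mm9 and dm3, without versions or roles. The authors' deposited table gives the mean normalized signal per gene, log2 fold changes and p-values, which were compared by count and by the adjusted p of some named genes. Within each gene and library the FPKM are whole multiples of 1 read: 100% of 191860 values gave whole reads within 0.05 of a read. Multiplied by a library's median-ratio size factor, what 1 read is worth varied by 0.641% between libraries, and multiplied by total reads by 6.79%, so the FPKM carry median-ratio scaling.

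Tests used limma 3.58.1 (R 4.3.3, trend) on log2(FPKM + 1) over all tested genes, two-sided, with Benjamini-Hochberg adjustment and a threshold of 0.05, and were tested on simulated data. The pseudocount of 1 understates fold changes of low genes. The count of tested genes and the alternatives are given with the results. The members and lists were chosen with earlier results of these data known. Named genes were the 12 largest falls and 12 largest rises among called genes with a mean of at least 1 FPKM and no overlap, up to 4 members of other lists, all members of the adipokine, glucocorticoid and clock lists, of which part is printed, markers of other tissues, and 10 of the 25 tied genes called alike at both times and the 10 with the strongest difference. Predicted genes were passed over. Some members of the lists are not reported here. Chromatin data were not used here.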

Additional observations from a re-analysis of the deposited data

Results flagged for a closer look

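In 25 of 250 sets of 5 libraries, 1 library stood far from the other 4 by Dixon's test (critical value 0.71), where chance gives about 1 in 20. The sets include Prm2, Crisp1, Igj and Cd79b, named as markers of other tissues in single libraries, for which that chance share does not hold. CORT_15w library 1 was the far one for Fosl2 (10.3 FPKM) and Timm10 (7.18 FPKM). CORT_15w library 3 was the far one for Gadd45g (48.5 FPKM), Per1 (29.6 FPKM), Col6a1 (48.1 FPKM), Irf4 (142 FPKM), Nr4a3 (5.81 FPKM) and Tead1 (36.1 FPKM). CORT_15w library 4 was the far one for Hspb8 (37.7 FPKM), Igj (109 FPKM) and Cd79b (12.8 FPKM). VEH_15w library 1 was the far one for Grb14 (5.46 FPKM), Mmp12 (4.72 FPKM), Itgax (2.60 FPKM) and Igj (39.4 FPKM). VEH_15w library 2 was the far one for Fkbp5 (73.2 FPKM). VEH_15w library 3 was the far one for Rnf125 (199 FPKM) and Gsta3 (122 FPKM). VEH_15w library 5 was the far one for Lcn2 (30.7 FPKM), Mt2 (111 FPKM), Acsl4 (27.1 FPKM), Igfals (1.22 FPKM), Fosl2 (12.2 FPKM), Prm2 (570.4 FPKM) and Crisp1 (1261 FPKM).

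The effect at 15 weeks differed from that at 5 weeks (interaction term, limma, adjusted p below 0.05) for 40 of the named genes. Acly, Acss2, Fabp5, Prdx6, Lpcat3, Cdr2, Ykt6, Hspb1, Aldoa and Pgam1 were named by the p of this same difference. Gsta3, Coq10b, Timm10, Gbp7, Tcf7l1, Kiss1r and Adamts1 were named after their values were seen. The choice fixed their place here, so the count cannot be set against the 16.7% of all genes. The log2 effect at 15 weeks minus that at 5 weeks was positive for Hcar1 (1.98), Apln (0.73), Cfd (3.25), Per1 (1.23), Nr1d1 (1.03), Slc27a1 (1.25), Zim1 (1.41), Notch3 (1.96), Aplnr (1.84), Elane (0.78), Sik3 (0.60), Gbp7 (1.05), Tcf7l1 (1.22) and Kiss1r (1.24). It was negative for Slc25a25 (-1.74), Fgf13 (-1.38), Slc5a7 (-1.90), Hspb7 (-2.46), Mt2 (-2.33), Hsd11b1 (-1.53), Acly (-1.87), Dgat2 (-1.71), Pmvk (-1.01), Mvk (-0.81), Gys2 (-1.85), Hspb8 (-0.97), Cryab (-1.99), Acss2 (-2.09), Fabp5 (-2.38), Prdx6 (-1.97), Lpcat3 (-1.05), Cdr2 (-2.22), Ykt6 (-0.91), Hspb1 (-2.03), Aldoa (-1.56), Pgam1 (-0.95), Gsta3 (-1.82), Coq10b (-1.69), Timm10 (-1.24) and Adamts1 (-1.71).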

How the results depend on the processing

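Both counts of calls at 15 weeks (370 higher, 627 lower) depended on the processing. Higher and lower genes numbered 147 and 273 with no filter on low values, 726 and 411 with scaling by total reads, and 598 and 1061 with 20 libraries in 1 fit. They numbered 38 and 84 with Prm2 and Crisp1 as covariates, 30 and 66 without the testis and epididymis libraries, 201 and 285 without the B cell library, and 1 and 0 without all 4. With 1 library left out, they ranged from 91 to 487 and from 175 to 816. The other alternatives (pseudocounts of 0.1 and 0.5, a mean of at least 1 FPKM, quantile normalization, voom) kept both counts within 1.5 times. The cause was not tested. The replicate numbers were not taken to pair the libraries, since same-numbered libraries correlated at -0.357 to 0.308 and 1 of 5 CORT_15w libraries correlated best with its own number; with a replicate block, 110 genes were higher and 239 lower. Of the 96 named genes that were called, 48 were called with any 1 library left out and 27 without the 3 libraries with testis or epididymis transcripts. The 2600 genes whose effect differs between times became 1579 without the testis and epididymis libraries of both times. They became 1208 without CORT_15w library 4 too, and 1770 to 3262 with 1 library left out. With a replicate block they numbered 2032.

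No named gene that was called changed sign in any of the 23 alternatives. Of those not called, the markers of other tissues not counted, 5 did: Adipoq (log2 fold change 0.0870 with quantile normalization), Mt2 (0.235 with covariates, 0.248 without the 3 libraries and -0.465 to 0.0170 with 1 library left out), Hsd11b1 (-0.283 to 0.0737 with 1 library left out), Aldoa (0.0717 with total reads, 0.112 with quantile normalization, 0.0152 without the B cell library, 0.0037 without all 4, and -0.0776 to 0.0229 with 1 library left out) and Pgam1 (-0.0108 with covariates, -0.0082 without the 3 libraries, -0.0018 without all 4, and -0.0150 to 0.0566 with 1 library left out). Among those markers, Igj had a log2 fold change of 0.49 with all libraries, -0.28 without the B cell library and -0.72 without all 4.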

Other observations

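Among the 689 genes called at both times, 21 had opposite directions, and those named here were chosen after their values were seen. Notch3 and Aplnr, genes of mural cells and vessels, were higher at 15 weeks and lower at 5 weeks. Notch3 averaged 8.37 ± 1.13 FPKM in CORT_15w and 3.895 ± 1.22 FPKM in VEH_15w at 15 weeks (log2 fold change 0.97) and 2.101 ± 0.961 FPKM in CORT_5w and 5.18 ± 2.07 FPKM in VEH_5w at 5 weeks (log2 fold change -0.99, adjusted p = 0.00958). Aplnr averaged 3.15 ± 1.09 FPKM in CORT_15w and 1.198 ± 0.392 FPKM in VEH_15w at 15 weeks (log2 fold change 0.90) and 0.474 ± 0.208 FPKM in CORT_5w and 1.91 ± 0.825 FPKM in VEH_5w at 5 weeks (log2 fold change -0.94, adjusted p = 0.0047). Gbp7, an interferon-induced guanylate-binding protein, and Tcf7l1, a transcription factor of the Wnt pathway, shared this order, with log2 fold changes of 0.40 and 0.57 at 15 weeks and -0.66 and -0.65 at 5 weeks. The reverse was seen in other genes: Coq10b, a coenzyme Q binding protein, averaged 12.1 ± 1.23 FPKM in CORT_15w and 19.96 ± 4.23 FPKM in VEH_15w at 15 weeks and 27.5 ± 3.69 FPKM in CORT_5w and 13.1 ± 2.503 FPKM in VEH_5w at 5 weeks. Timm10, a chaperone of mitochondrial import, Gsta3, a glutathione transferase, Gys2 and Hspb8 also fell at 15 weeks and rose at 5 weeks. Without the 15 week libraries with testis or epididymis transcripts, Coq10b alone of the genes named in this paragraph was called at 15 weeks (adjusted p = 0.037). The others had adjusted p values of 0.0671 (Gsta3) to 0.125 (Timm10) there. With CORT_15w library 4 alone left out, adjusted p was 0.0571 for Coq10b, 0.0881 for Gbp7, 0.0536 for Tcf7l1 and 0.086 for Gys2.

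A further 76 genes were called at 15 weeks and not at 5 weeks and had a called difference of the effects. Kiss1r and Adamts1 were chosen after their values were seen. Kiss1r, the kisspeptin receptor, had 4.26, 3.92, 1.97, 2.15 and 4.06 FPKM in CORT_15w, against 1.48, 0.8299, 0.883, 1.297 and 0.549 FPKM in VEH_15w. Kiss1r had a log2 fold change of 1.07 (SE 0.20, adjusted p = 0.0165), and its effect differed from that at 5 weeks (1.24, adjusted p = 0.00168). Without the 15 week libraries with testis or epididymis transcripts, adjusted p at 15 weeks was 0.103 for Kiss1r and 0.0239 for Adamts1. With CORT_15w library 4 alone left out, it was 0.0219 for Kiss1r and 0.0536 for Adamts1. Adamts1, a metalloprotease of the matrix, had 10.3, 13.7, 15.8, 13.7 and 13.9 FPKM in CORT_15w, against 39.5, 32.5, 29.6, 43.4 and 14.5 FPKM in VEH_15w (log2 fold change -1.11, SE 0.25, adjusted p = 0.0292), with VEH_15w library 5 among the CORT_15w libraries, and its effect differed too (-1.71, adjusted p = 0.00473).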
